A study of Mus musculus with 14 samples.

Results

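The Cyp2c cytochromes are described here across the livers of wild-type mice and of mice lacking Mdr2 or both Mdr2 and IL6. The 8 listed members, Cyp2c29, Cyp2c37, Cyp2c38, Cyp2c39, Cyp2c50, Cyp2c54, Cyp2c55 and Cyp2c70, were read from the deposited value table, each through its probe of highest mean among probes that name 1 gene only. The probes were thus chosen by the mean log2 value over the arrays, but each member had exactly 1 such probe, so that mean decided nothing. All 8 members were found among 19938 genes tested. Every animal was female and 14 months old, and the liver tissue was free of tumour. The wild type was C57BL/6 (3 arrays), the Mdr2-KO group lacked Mdr2 (5 arrays), and the Mdr2-KO/IL6-KO group, called the double knockout here, lacked both Mdr2 and IL6 (6 arrays). Abcb4, formerly called Mdr2, encodes the transporter that carries phosphatidylcholine into bile, and Il6 encodes interleukin 6. The labels do not give the strain background of the knockouts, so a strain difference and the loss of the genes cannot be told apart. They also do not say that each array is a separate mouse, and p-values therefore measure the spread between these arrays, which may be technical.

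The Cyp2c family consists of haem monooxygenases of the hepatocyte endoplasmic reticulum, which draw electrons from P450 reductase. Its members oxidise drugs and steroids, and several also act on arachidonic acid, linoleic acid or retinoic acid. In mice the genes lie side by side in a cluster, are much alike in sequence, and are known to respond to the nuclear receptors CAR (Nr1i3) and PXR (Nr1i2) and to the hepatocyte factor HNF4A. Because the genes are so alike, a probe assigned to 1 of them may also pick up RNA of a neighbour, and single-gene values are uncertain to that extent.

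The promoters of 7 of the 8 members were in the table of RefSeq start sites (GRCm38.p6), and Cyp2c54 was not matched. RefSeq gives 2 starts for Cyp2c39, and the second lies on the far side of Cyp2c38, so the members had 8 windows of 300 bases (250 before and 50 after the start). Shown are the starts of the member that rose (Cyp2c39), of the flanking genes most like it (Cyp2c29 and Cyp2c38), and of a like pair that fell (Cyp2c37 and Cyp2c50). Each is printed 5′ to 3′ on the strand of the gene, with the letters CAAAGTC, known as the core of an HNF4 element, and TATAAA, the letters of a TATA box, in capitals.
Cyp2c39 start 1, chr19:39347096-39347395, plus strand: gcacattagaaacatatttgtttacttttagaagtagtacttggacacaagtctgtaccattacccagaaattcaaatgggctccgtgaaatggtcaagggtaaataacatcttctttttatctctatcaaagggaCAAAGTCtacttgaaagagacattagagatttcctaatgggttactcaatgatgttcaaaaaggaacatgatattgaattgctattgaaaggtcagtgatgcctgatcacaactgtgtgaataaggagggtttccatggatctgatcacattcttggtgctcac
Cyp2c39 start 2, chr19:39510572-39510871, plus strand: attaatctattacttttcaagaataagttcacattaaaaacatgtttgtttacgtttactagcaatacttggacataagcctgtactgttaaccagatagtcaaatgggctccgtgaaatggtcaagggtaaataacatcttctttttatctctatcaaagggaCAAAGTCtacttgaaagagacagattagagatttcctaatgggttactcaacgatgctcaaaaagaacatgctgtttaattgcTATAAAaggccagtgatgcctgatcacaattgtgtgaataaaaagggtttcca
Cyp2c38, chr19:39463026-39463325, minus strand: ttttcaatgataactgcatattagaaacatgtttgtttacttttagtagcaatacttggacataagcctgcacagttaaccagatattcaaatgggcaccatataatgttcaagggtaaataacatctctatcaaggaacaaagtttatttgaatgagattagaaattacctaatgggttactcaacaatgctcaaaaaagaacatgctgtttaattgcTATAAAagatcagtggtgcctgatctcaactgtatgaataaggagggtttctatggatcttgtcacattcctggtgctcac
Cyp2c29, chr19:39286835-39287134, plus strand: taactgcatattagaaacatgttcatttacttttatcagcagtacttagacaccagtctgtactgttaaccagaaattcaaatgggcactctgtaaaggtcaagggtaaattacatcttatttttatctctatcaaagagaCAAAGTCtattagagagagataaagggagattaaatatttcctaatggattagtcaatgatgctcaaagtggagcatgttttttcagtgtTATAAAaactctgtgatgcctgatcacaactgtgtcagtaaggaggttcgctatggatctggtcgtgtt
Cyp2c37, chr19:39992174-39992473, plus strand: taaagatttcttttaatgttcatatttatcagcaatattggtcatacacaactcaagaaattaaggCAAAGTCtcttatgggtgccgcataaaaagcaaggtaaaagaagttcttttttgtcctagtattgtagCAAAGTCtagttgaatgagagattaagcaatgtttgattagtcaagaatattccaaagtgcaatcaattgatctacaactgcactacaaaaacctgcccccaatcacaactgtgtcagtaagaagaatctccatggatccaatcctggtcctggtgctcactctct
Cyp2c50, chr19:40089429-40089728, plus strand: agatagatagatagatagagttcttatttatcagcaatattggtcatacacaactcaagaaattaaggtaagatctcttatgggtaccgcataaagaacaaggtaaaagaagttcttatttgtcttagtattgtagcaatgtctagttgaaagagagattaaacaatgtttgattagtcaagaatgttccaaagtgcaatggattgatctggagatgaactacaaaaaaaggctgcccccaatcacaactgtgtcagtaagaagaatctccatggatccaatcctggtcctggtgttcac

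The windows of Cyp2c39, Cyp2c29 and Cyp2c38 were much alike in sequence, as were those of Cyp2c37 and Cyp2c50. The 2 Cyp2c39 windows were identical at 90.7% of aligned bases, and start 2 of Cyp2c39 matched Cyp2c38 at 88.2%. Start 1 matched Cyp2c38 at 86.3% and Cyp2c29 at 81.9%, and Cyp2c37 matched Cyp2c50 at 89.5%. Less alike were Cyp2c39 and this pair that fell. Start 1 matched Cyp2c37 at 73.3% and Cyp2c50 at 74.4%, and start 2 matched them at 73.1% and 72.6%. CAAAGTC (either strand) stood in 5 of the 8 member windows, in both starts of Cyp2c39, in Cyp2c29, in Cyp2c70 and at 2 places in Cyp2c37, beside 4.44% of 32851 RefSeq windows of the same length. Among all 14 Cyp2c windows 11 held it, and Cyp2c38 and Cyp2c50 did not. TATAAA (either strand) stood in 5 of the 8 member windows, Cyp2c29, Cyp2c38, start 2 of Cyp2c39, Cyp2c55 and Cyp2c70, beside 13.6% of all windows. Its first base lay at -29 from the start in Cyp2c55 and Cyp2c70, -31 in Cyp2c38, -19 in Cyp2c29 and -3 in start 2 of Cyp2c39. The match in start 2 of Cyp2c39 thus spans the start itself, and that of Cyp2c70 is on the opposite strand. The nuclear receptor hexamer AGGTCA was in 3 of the 8 (Cyp2c29, start 1 of Cyp2c39 and Cyp2c70), as in 16.3% of all. As a direct repeat spaced by 1 base (0.0396% of all) or by 4 bases (0.0152%) it was in 0 of the 8. GTTAAT, a hexamer of HNF1 sites (7.1% of all), TTGCGCAA, a C/EBP palindrome (0.183%), and TTCNNNGAA, a STAT palindrome (8.3%), were in 0 of the 8. A match says only that the letters are present, and the first 2 motifs were chosen after the sequences had been read. Windows this alike are not independent of each other, and Cyp2c39 is counted with 2 of them. The counts beside the shares of all windows therefore do not measure enrichment.

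All values are log2 signals, and differences are first group minus second, tested with limma over all genes with Benjamini-Hochberg adjustment at 0.05. Array medians ran from 6.15 to 6.24. The background was taken as 5.49, since 95% of the 1015 olfactory receptor genes on the array read lower. Abcb4 itself read 10.36 ± 0.03 (SD, n = 3) in wild type, 9.01 ± 0.19 (n = 5) in Mdr2-KO and 9.05 ± 0.20 (n = 6) in the double knockout, lower in every knockout array. Il6 was under the background in all arrays, so the label of the second knockout could not be checked on it. Wild-type array 2 and Mdr2-KO array 3 stood apart from their groups in several members (Cyp2c37, Cyp2c38, Cyp2c39 or Cyp2c55), and without both arrays 3, 5 and 0 members passed in the 3 comparisons below. Of 9 measured hepatocyte markers none passed in any comparison (1 was lower between the knockouts without wild-type array 3 or Mdr2-KO array 2 or 5), and their mean lay between 12.67 and 12.74 in wild type, 12.73 and 12.81 in Mdr2-KO, and 12.70 and 12.78 in the double knockout.

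In Mdr2-KO liver the Cyp2c members went in different directions. Cyp2c39 rose, Cyp2c37, Cyp2c54 and Cyp2c50 fell, and Cyp2c29, Cyp2c38, Cyp2c55 and Cyp2c70 did not pass the test. In this comparison 21.0% of all genes passed, 8.89% higher and 12.1% lower. The arrays of the groups did not overlap for 5 of the 8 members, and for 23.5% of all genes. The median difference of the members was -0.43 (all genes -0.07), and their median absolute difference was 0.80, beside 0.16 for all genes and 0.17 for genes above the background. As this is whole tissue, fewer cells of a type and less RNA per cell cannot be told apart.

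In Mdr2-KO/IL6-KO liver the same comparison with wild type gave 1 member higher (Cyp2c39), 4 lower (Cyp2c37, Cyp2c54, Cyp2c50 and Cyp2c29) and 3 that did not pass. Of all genes 12.3% passed, 6.96% higher and 5.33% lower. The groups did not overlap for 5 members, and for 15.1% of all genes. The members had a median difference of -0.57 (all genes -0.02) and a median absolute difference of 0.72 (all genes 0.10). Both comparisons use the same 3 wild-type arrays, so they are not independent of each other.

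Between the knockouts none of the 8 members passed, where 8.76% of all genes did (5.04% higher and 3.72% lower in Mdr2-KO/IL6-KO). No member was without overlap, as 7.34% of all genes were. At an unadjusted p under 0.05 limma gave 2 of the 8 members, Cyp2c29 and Cyp2c70, and 5770 of the 19938 genes tested. The share of the members was thus no larger than that of all genes. The median absolute difference of the members was 0.19, beside 0.11 for all genes.

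**Figure D1:**
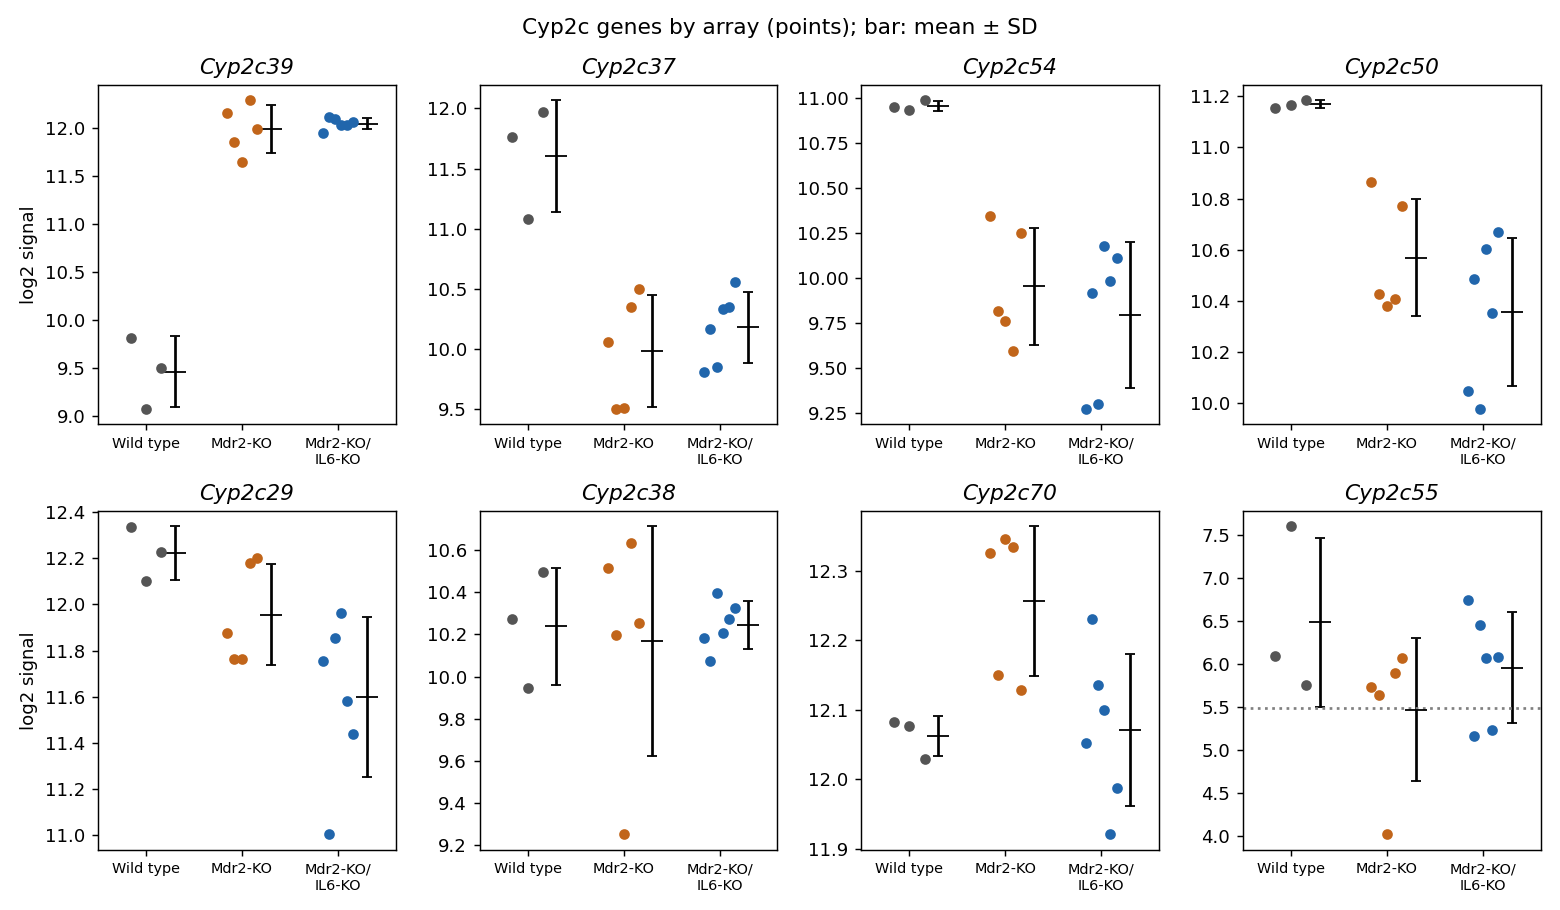
Log2 signal (vertical axis) of the 8 Cyp2c members in each array (points) of the 3 genotypes, with the mean ± SD of each group as a bar and, for Cyp2c55, the background of 5.49 as a dotted line. Cyp2c39 read at most 9.80 in wild type and at least 11.65 in both knockouts, while the wild-type arrays of Cyp2c37, Cyp2c54 and Cyp2c50 lay above every knockout array.

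Cyp2c39, known as a hydroxylase of retinoic acid, rose in both knockouts. It read 9.80, 9.07 and 9.50 in wild-type arrays 1 to 3 and 12.16, 11.85, 11.65, 12.29 and 11.99 in Mdr2-KO arrays 1 to 5. In Mdr2-KO/IL6-KO it ran from 11.95 to 12.12 with a median of 12.05. Every knockout array was above every wild-type array, and the 6 double-knockout arrays lay closest together (SD 0.06, against 0.25 in Mdr2-KO and 0.37 in wild type). The difference from wild type was 2.53 (SE 0.14, 95% interval 2.22 to 2.84, adjusted p = 6.5e-08) in Mdr2-KO, a 5.78-fold higher signal. In Mdr2-KO/IL6-KO it was 2.59 (SE 0.14, 2.29 to 2.89, adjusted p = 5.73e-08), 6.02-fold. Leaving out any 1 array kept these differences between 2.34 and 2.71 and between 2.40 and 2.76. The knockouts differed by 0.06 (interval -0.20 to 0.31, adjusted p = 0.767), so that any change between them larger than these bounds was not seen.

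Cyp2c37, which turns arachidonic acid mainly into a hydroxyeicosatetraenoic acid, fell most among the members. It read 11.76, 11.08 and 11.97 in wild type and 10.06, 9.51, 9.51, 10.35 and 10.50 in Mdr2-KO, and it ran from 9.81 to 10.56 (median 10.25) in Mdr2-KO/IL6-KO. Wild-type array 2 was the lowest of its group and still above all 11 knockout arrays. The fall was 3.08-fold in Mdr2-KO (-1.62, SE 0.25, adjusted p = 0.000542) and 2.69-fold in the double knockout (-1.43, SE 0.24, adjusted p = 0.00127). The knockouts differed by 0.20 (interval -0.24 to 0.63, adjusted p = 0.543).

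Cyp2c54, an epoxygenase of arachidonic and linoleic acid, was almost constant in wild type at 10.95, 10.93 and 10.99. It read 10.34, 9.82, 9.76, 9.59 and 10.25 in Mdr2-KO, with a range of 9.27 to 10.18 (median 9.95) in the double knockout. All knockout arrays lay below all wild-type arrays. The differences were -1.01 (SE 0.21, adjusted p = 0.00464) and -1.17 (SE 0.21, adjusted p = 0.00175), and the knockouts differed by -0.16 (interval -0.53 to 0.22, adjusted p = 0.566).

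Cyp2c50, the neighbour of Cyp2c54 with the same known substrates, moved the same way by a smaller amount. Its wild-type arrays read 11.15, 11.17 and 11.18, its Mdr2-KO arrays 10.86, 10.43, 10.38, 10.41 and 10.77, and its Mdr2-KO/IL6-KO arrays 9.98 to 10.67 (median 10.42). The groups did not overlap. In Mdr2-KO the difference was -0.60 (SE 0.15, adjusted p = 0.0142), a call that ended when wild-type array 3 was left out (-0.59, adjusted p = 0.0534) or when Mdr2-KO array 3 and wild-type array 2 both were (-0.55, adjusted p = 0.0526). In Mdr2-KO/IL6-KO it was -0.81 (SE 0.15, adjusted p = 0.00233), and between the knockouts -0.21 (interval -0.49 to 0.06, adjusted p = 0.277).

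Cyp2c29, a phenobarbital-inducible enzyme and a known CAR target, passed against wild type in the double knockout alone. It read 12.34, 12.10 and 12.23 in wild type and 11.88, 11.76, 11.76, 12.18 and 12.20 in Mdr2-KO, where both groups overlapped (-0.27, interval -0.64 to 0.11, adjusted p = 0.275). Its 6 Mdr2-KO/IL6-KO arrays, from 11.00 to 11.97 with a median of 11.67, all lay below wild type (-0.62, SE 0.17, adjusted p = 0.025). Leaving out wild-type array 1 gave an adjusted p of 0.102, and leaving out wild-type array 3 one of 0.0769, so the call rests on both. The test of the knockouts against each other did not pass (-0.36, interval -0.66 to -0.05, adjusted p = 0.124, unadjusted p = 0.0263 by limma), so a difference of Cyp2c29 between them was not shown.

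Cyp2c70, the enzyme that makes muricholic acids in mice, had the smallest spread of the members. It read 12.08, 12.08 and 12.03 in wild type, 12.32, 12.15, 12.35, 12.33 and 12.13 in Mdr2-KO, and 11.92 to 12.23 (median 12.08) in Mdr2-KO/IL6-KO. The Mdr2-KO arrays all lay above wild type, yet the difference of 0.19 did not pass (interval 0.03 to 0.36, adjusted p = 0.0846, unadjusted p = 0.0247 by limma). The double knockout differed from wild type by 0.01 (interval -0.15 to 0.17, adjusted p = 0.968). Its difference from Mdr2-KO, -0.19, did not pass either (interval -0.32 to -0.05, adjusted p = 0.0781, unadjusted p = 0.0113 by limma).

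Cyp2c38, an arachidonic acid epoxygenase that lies beside Cyp2c39, passed in no comparison. It read 10.27, 9.95 and 10.50 in wild type, 10.51, 10.20, 9.25, 10.63 and 10.25 in Mdr2-KO, and 10.07 to 10.40 (median 10.24) in Mdr2-KO/IL6-KO. Mdr2-KO array 3 was far under the others and the groups overlapped. The difference from wild type was -0.07 (interval -0.55 to 0.41, adjusted p = 0.843) in Mdr2-KO, and 0.16 (adjusted p = 0.384) without that array. In Mdr2-KO/IL6-KO it was 0.00 (interval -0.46 to 0.47, adjusted p = 0.996), an interval that lies wholly under that of Cyp2c39.

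Cyp2c55, best known from the intestine, was near the background, and its probe was the most variable of the members. It read 6.10, 7.60 and 5.76 in wild type, 5.73, 5.64, 4.02, 5.90 and 6.07 in Mdr2-KO, and 5.16 to 6.74 (median 6.08) in Mdr2-KO/IL6-KO. All 3 wild-type arrays, 4 of 5 Mdr2-KO arrays and 4 of 6 double-knockout arrays were above the background, and the groups overlapped. The Mdr2-KO difference was -1.01 (interval -2.04 to 0.02, adjusted p = 0.139), and -0.09 once the highest array (wild-type array 2) and the lowest (Mdr2-KO array 3) were left out. The double knockout differed from wild type by -0.53 (adjusted p = 0.55) and from Mdr2-KO by 0.49 (adjusted p = 0.428), which leaves changes of over 1 log2 unit within the intervals.

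Of the 7 other Cyp2c genes listed, 5 had a probe of their own, and 1 further probe that names several of them was not read. Cyp2c68, at 11.13 ± 0.07 in wild type, fell to 9.78 ± 0.42 in Mdr2-KO (-1.35, SE 0.19, adjusted p = 0.00026) and 9.10 ± 0.21 in the double knockout (-2.04, SE 0.18, adjusted p = 5.95e-06). It was the only Cyp2c gene of the 13 measured that passed between the knockouts, at -0.69 (SE 0.15, adjusted p = 0.015), and no alternative setting ended its 3 calls. Cyp2c67 read 10.93 ± 0.09, 10.54 ± 0.28 and 10.21 ± 0.29 and passed in the double knockout against wild type (-0.72, SE 0.16, adjusted p = 0.0092), with -0.39 in Mdr2-KO (adjusted p = 0.104). Cyp2c23, the gene once named Cyp2c44, read 12.15 ± 0.10, 12.05 ± 0.13 and 12.02 ± 0.10 and passed in none. Cyp2c65 was under the background in every array, Cyp2c66 lay around it (group means 5.16 to 5.53), and neither passed.

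Along the chromosome, in RefSeq order, the 12 measured genes of the cluster run Cyp2c55, Cyp2c65, Cyp2c66, Cyp2c29, Cyp2c39, Cyp2c38, Cyp2c67, Cyp2c68, Cyp2c37, Cyp2c54, Cyp2c50 and Cyp2c70. By its start 1, the gene that rose lies between Cyp2c29 and Cyp2c38, of which neither rose, while its start 2 lies beyond Cyp2c38. Cyp2c68, Cyp2c37, Cyp2c54 and Cyp2c50, which fell in both knockouts, follow each other among the measured genes. Among all genes, 21.0% passed in Mdr2-KO, 12.3% in the double knockout and 8.76% between the knockouts. In the cluster 5 genes passed in Mdr2-KO and 7 in the double knockout, each against wild type, and 1 between the knockouts. Of the 20 nearest measured genes outside it, 10 on each side, 6 passed in the first comparison (3 in each direction), 3 in the second (1 higher, 2 lower) and 3 between the knockouts (1 higher, 2 lower). Their differences from wild type ran from -0.68 (Dntt) to 0.40 (Pdlim1) in Mdr2-KO and from -0.70 to 0.54, of the same 2 genes, in the double knockout. Cyp2c39, Cyp2c37, Cyp2c54 and Cyp2c68 lay outside both ranges, Cyp2c50 and Cyp2c67 outside the second, and Cyp2c55, which did not pass, outside the first.

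**Figure D2:**
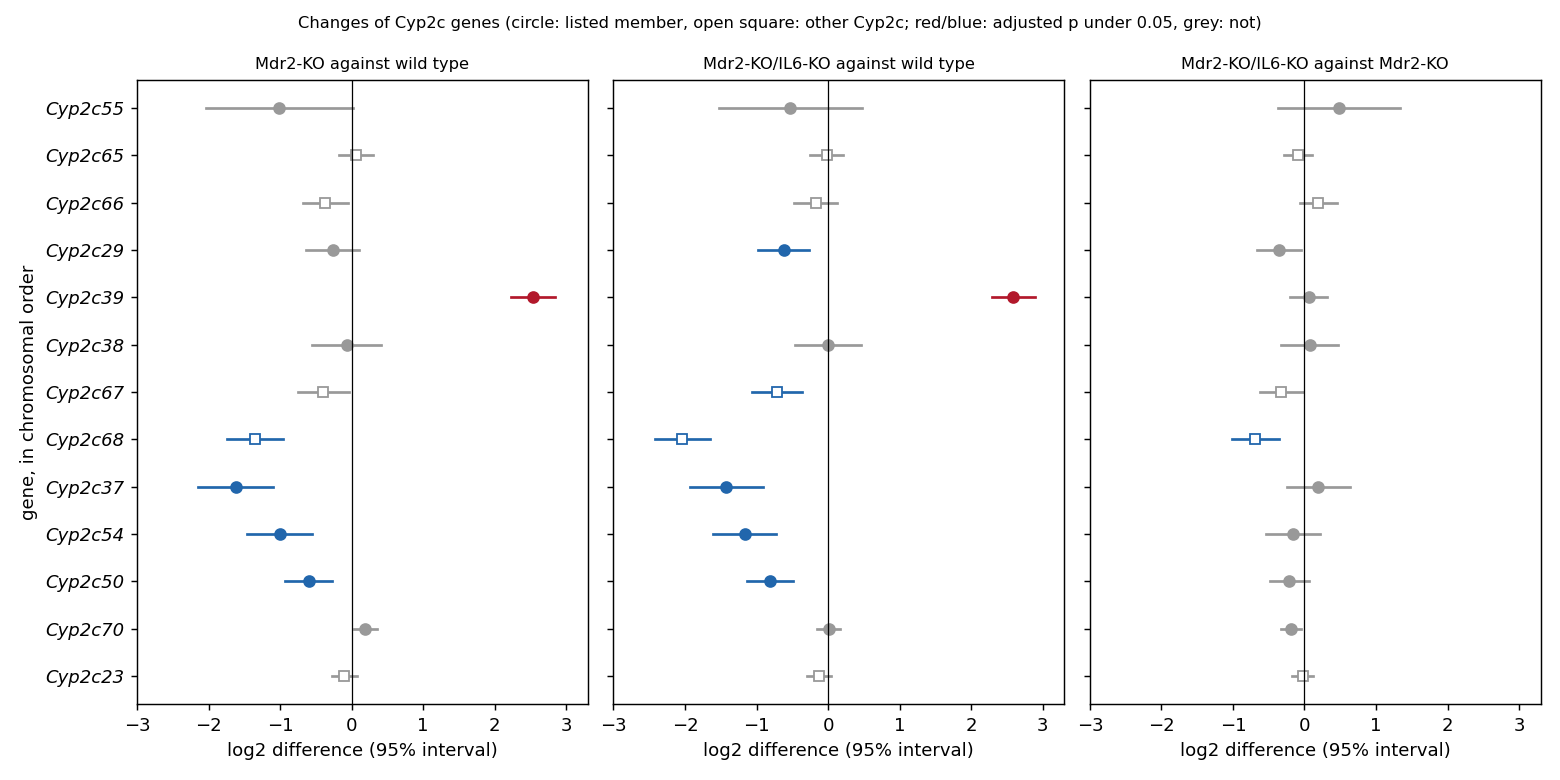
Log2 difference with its 95% interval (horizontal axis) of the 13 measured Cyp2c genes, in chromosomal order from the top with Cyp2c23, which lies elsewhere, last. Circles are listed members, open squares other Cyp2c genes, red a rise and blue a fall past an adjusted p of 0.05, and grey neither; Cyp2c39 is the only gene in red, and the 4 genes from Cyp2c68 to Cyp2c50 are blue against wild type in both knockouts.

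Within groups the members differed in how far they varied and in which arrays. The SD pooled over the 3 groups ran from 0.0992 for Cyp2c70 to 0.396 for Cyp2c37 among the members well above background, and was 0.782 for Cyp2c55. Of genes above the background 26.0% varied less than Cyp2c70, and 97.4% less than Cyp2c37. Cyp2c54 and Cyp2c50 varied together, with a Pearson r of 0.98 over the 14 arrays and of 0.96 for deviations from the group means (0.96 over 12 arrays, without the 2 farthest). Double-knockout arrays 1 and 3 were lowest for both, at 9.27 and 9.30 for Cyp2c54 and 10.05 and 9.98 for Cyp2c50. Cyp2c37 followed them less closely (r of deviations 0.54 with Cyp2c54 and 0.60 with Cyp2c50). Cyp2c39 and Cyp2c38, whose group means differ in pattern (r = 0.10 over the 14 arrays), had deviations with an r of 0.74, and 0.51 without the 2 farthest arrays. These correlations are descriptions over arrays that share their normalization, and like sequences can share signal.

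The genes most like each member over the 14 arrays were taken from 14108 genes above the background outside the family. For Cyp2c37 the first was Nr1i3, the CAR receptor itself (r = 0.93, and 0.82 for deviations), followed by Il15ra and Setbp1 (both 0.92). For Cyp2c38 it was Oat, an enzyme of pericentral hepatocytes (r = 0.93, deviations 0.95, and 0.85 without the 2 farthest arrays), with Rmdn2 (0.83) and Tm4sf19 (0.82) next. Cyp2c29 was most like Pbld2 (0.95), Cyb5b (0.92) and Rgn (0.91). Cyp2c54 was most like 1810046K07Rik (0.92), Erg28 (0.91) and Nlrp6 (0.90), and Cyp2c50 like Sult1b1, Hlf (both 0.88) and Nlrp6 (0.87). Cyp2c70 was most like Cox11 (0.95), Golgb1 (0.91) and Mccc1 (0.90), and Cyp2c55 like Uqcc1 (0.91), Itgax (0.88) and Slamf8 (0.85). For Cyp2c39 Slc39a4, Emp2 and Abhd1 all reached 0.96, but their deviations within groups had an r of -0.03, 0.15 and -0.01, so that likeness lies in the step from wild type to the knockouts.

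**Figure D3:**
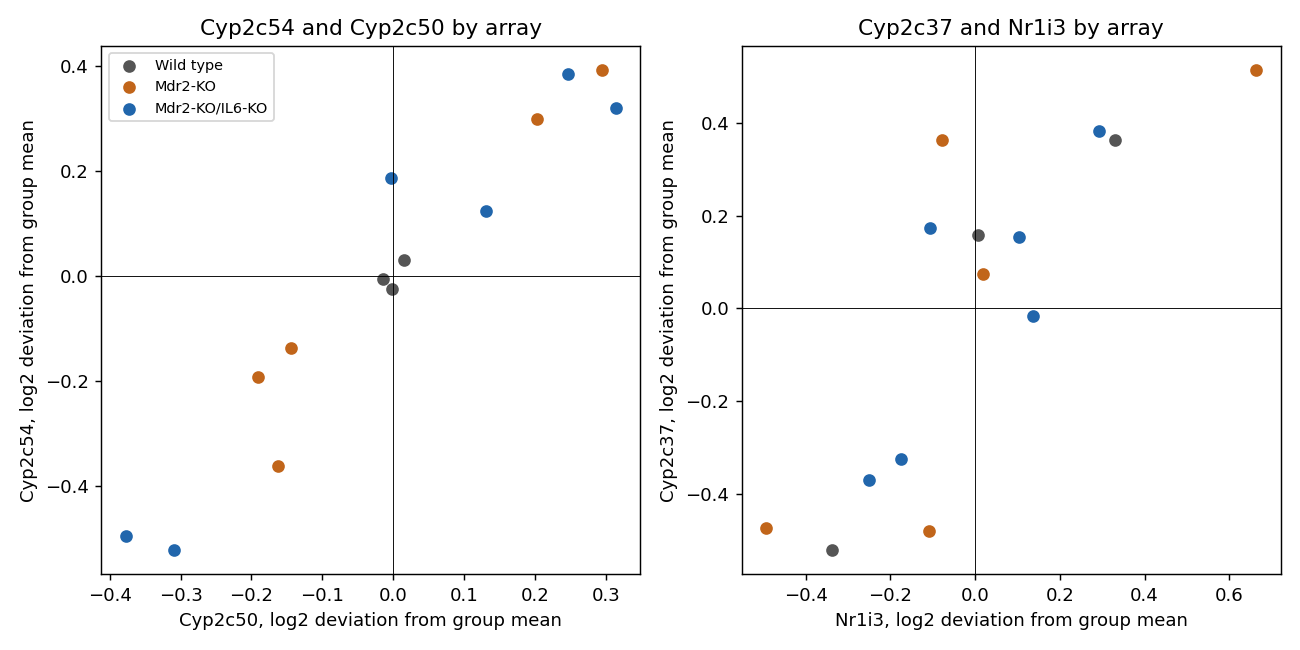
Deviation of each of the 14 arrays from its group mean, in log2 units, for Cyp2c54 against Cyp2c50 (left) and Cyp2c37 against Nr1i3 (right), coloured by group. The points follow a rising line for the first pair (r = 0.96) and scatter more for the second (r = 0.82).

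Among the receptors and factors known to act on Cyp2c genes, 19 of 21 listed were measured, all with a mean above the background. Against wild type, 8.89% of all genes were higher and 12.1% lower in Mdr2-KO, and 6.96% higher and 5.33% lower in the double knockout. In Mdr2-KO against wild type 2 were higher (Bcl6 and Cebpa) and 6 lower (Nr1i3, Cux2, Ppara, Esr1, Nr1h4 and Nr3c1), and in Mdr2-KO/IL6-KO 7 were lower, the same 6 and Onecut1. The 6 were 4 without wild-type array 1 or 3, with Nr1h4 lost each time (adjusted p = 0.0653 and 0.0634). Without wild-type array 3 the 7 were 3 (Esr1, Ppara and Nr1h4), and the 2 rises were 0 without wild-type array 1 and 1 without wild-type array 2 or 3 or Mdr2-KO array 3, 4 or 5. Nr3c1 in the double knockout (adjusted p = 0.0406) also ended with median centring (0.0576) or only the 2 groups compared (0.059). It ended as well without wild-type array 1 (0.125) or 2 (0.0962) or any 1 of several knockout arrays. Cebpa in Mdr2-KO (0.0335) also ended with quantile normalization (0.051). CAR, which drives Cyp2c29, Cyp2c37 and other drug-metabolising genes, read 10.90, 10.56 and 11.23 in wild type, 9.98, 9.86, 9.47, 9.89 and 10.63 in Mdr2-KO, and 9.79 to 10.33 (median 10.03) in Mdr2-KO/IL6-KO. Mdr2-KO array 5 alone reached into the wild-type range. Nr1i3 fell by 0.93 on the log2 scale in Mdr2-KO (SE 0.20, adjusted p = 0.00583) and by 0.86 in the double knockout (SE 0.20, adjusted p = 0.00976), the second call ending without wild-type array 3 (adjusted p = 0.0691). PXR (Nr1i2) was at -0.18 in Mdr2-KO (adjusted p = 0.448) and Hnf4a at -0.06 (adjusted p = 0.699), neither passing. Ppara, the receptor of fatty acids, fell by 0.82 (SE 0.08, adjusted p = 2.5e-05) and 0.79 (SE 0.08, adjusted p = 2.98e-05).

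The oestrogen receptor Esr1 fell by 0.60 in Mdr2-KO (adjusted p = 0.0125, and 0.0534 without wild-type array 3) and by 0.98 in Mdr2-KO/IL6-KO (adjusted p = 0.000578). Cux2, a factor of female liver, fell by 0.82 and 0.78 (adjusted p = 0.00906 and 0.013), but not without wild-type array 1 (adjusted p = 0.0537 and 0.0912) nor, in the double knockout, without array 3 (0.0583). Bcl6, a repressor that is higher in male liver, rose by 0.93 in Mdr2-KO (adjusted p = 0.0149). It was the 1 gene of the 19 to pass between the knockouts, at -0.73 (adjusted p = 0.0384), where 8.76% of all genes passed. The rise was lost on leaving out wild-type array 1 (adjusted p = 0.0621) or 3 (0.0597), and the difference between the knockouts without any 1 of several knockout arrays (up to 0.096, without Mdr2-KO array 1). Within groups the levels of Nr1i3 moved with those of some members and hardly with those of others. The r of deviations was 0.65 for Cyp2c50, 0.59 for Cyp2c54 and 0.13 for Cyp2c29, and for Cyp2c39 0.43, or -0.02 without the 2 farthest arrays.

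**Figure D4:**
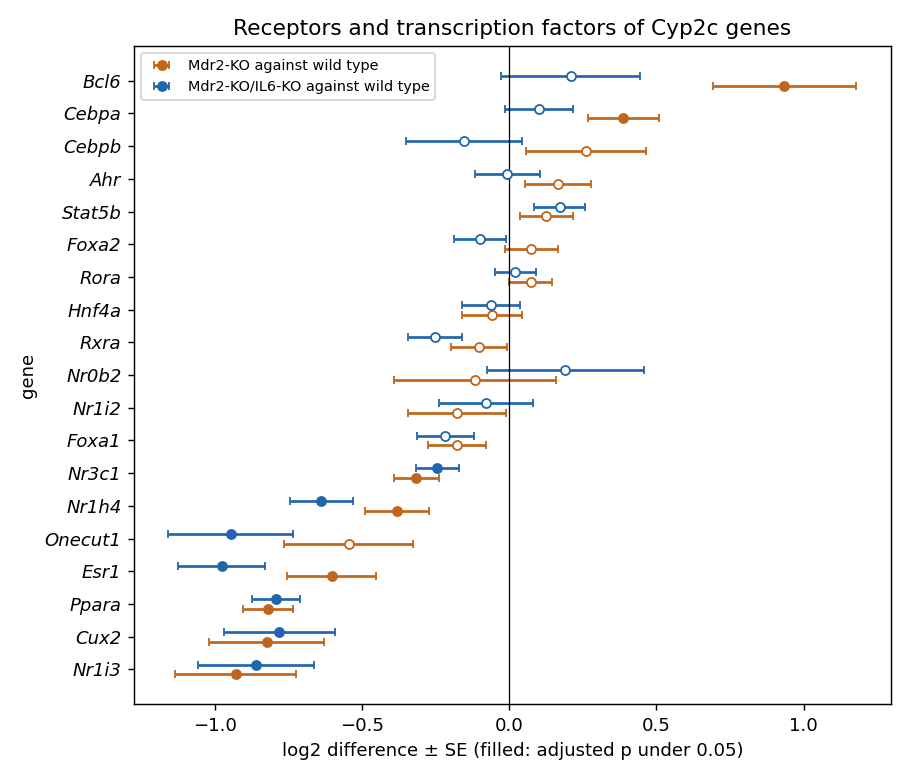
Log2 difference from wild type ± SE (horizontal axis) of 19 receptors and transcription factors in Mdr2-KO (orange) and Mdr2-KO/IL6-KO (blue), filled where the adjusted p is under 0.05. Nr1i3, Cux2, Ppara, Esr1, Nr1h4 and Nr3c1 lie to the left and are filled in both, while Nr1i2 and Hnf4a lie near 0 and are open.

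Target genes of CAR and PXR outside the family did not move as 1 group: of 13 measured (16 listed), 2 rose and 2 fell in Mdr2-KO, and 4 rose and 2 fell in Mdr2-KO/IL6-KO against wild type. The shares of all genes were 8.89% higher and 12.1% lower in the first comparison, and 6.96% higher and 5.33% lower in the second. Between the knockouts they were 5.04% higher and 3.72% lower. In Mdr2-KO 4 rose without array 3, and 1 fell without any of several arrays (wild-type array 1, 2 or 3 or Mdr2-KO array 1 or 3), while in the double knockout 2 rose without wild-type array 2 or 3 or its own array 1. Cyp2b10, the standard CAR target, fell by 1.81 (SE 0.29, adjusted p = 0.000826) and 1.89 (SE 0.28, adjusted p = 0.000557). Cyp3a11, the standard PXR target, rose by 0.55 (SE 0.10, adjusted p = 0.00228) and 0.46 (SE 0.10, adjusted p = 0.00685, and 0.051 without wild-type array 3). The glutathione transferase Gstm3 rose by 0.74 and 0.86 (adjusted p = 0.00177 and 0.000601). Between the knockouts Abcc4 was higher (0.79, adjusted p = 0.0248, and 0.058 without Mdr2-KO array 1) and Cyp3a13 lower (-0.50, adjusted p = 0.0101).

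Of the other enzymes of arachidonic acid, 15 of 16 were measured, with 3 higher and 2 lower in Mdr2-KO, and 3 higher and 3 lower in Mdr2-KO/IL6-KO. Beside these counts, 21.0% of all genes passed in Mdr2-KO and 12.3% in the double knockout. Between the knockouts 8.76% passed, of which the lower genes were 3.72% of all. The 2 lower in Mdr2-KO were 0 without wild-type array 1 and 1 without any of 8 other single arrays, and the 3 lower in the double knockout were 1 without wild-type array 1 or double-knockout array 2. Cyp2j5, another epoxygenase, fell by 0.37 (adjusted p = 0.027, and 0.0656, 0.0864 and 0.0542 without wild-type array 1, wild-type array 3 or Mdr2-KO array 1) and by 0.53 (adjusted p = 0.00404). The epoxide hydrolase Ephx1 rose by 0.60 (adjusted p = 0.0136, and 0.0612 without wild-type array 1) and 0.90 (adjusted p = 0.00106). Cyp4a12a, which hydroxylates the end of the fatty acid chain and is male-biased, rose (adjusted p = 0.00143 and 0.000905) from a wild-type mean of 4.28, under the background, to means of 7.49 and 7.66. Between the knockouts 1 of the 15 was lower, Cyp2j6 (-0.21, adjusted p = 0.0467, ended by leaving out any of several arrays, up to 0.107 without Mdr2-KO array 1).

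Of 11 genes of bile acid synthesis and transport, the pathway in which Cyp2c70 acts, 3 fell in Mdr2-KO (1 without wild-type array 3), and 1 rose there without Mdr2-KO array 5 or double-knockout array 2. In the double knockout 1 rose and 1 fell against wild type (3 fell without wild-type array 2 or its own array 5, and 2 without Mdr2-KO array 4 or its own array 4), and 1 was lower than in Mdr2-KO (Amacr, -0.37, adjusted p = 0.0114). Among all genes 21.0% passed in Mdr2-KO, 12.3% in the double knockout and 8.76% between the knockouts. The uptake transporter Slc10a1 fell by 0.36 and 0.46 (adjusted p = 0.00577 and 0.00118). Cyp7a1, the rate-limiting enzyme, fell by 0.70 in Mdr2-KO (adjusted p = 0.0345), a call lost on leaving out wild-type array 1 (0.126) or 3 (0.0989) or Mdr2-KO array 3 (0.0534) or 4 (0.0744), or with trend and robust moderation (0.053). Cyp7b1 fell by 0.97 there (adjusted p = 0.0149, and 0.106 without wild-type array 3), and Acox2 rose by 0.48 in the double knockout (adjusted p = 0.00286). Of the electron partners of P450 enzymes 3 of 4 were measured, and 1, Cyb5r3, fell, in Mdr2-KO (-0.27, adjusted p = 0.0409). That call ended with median centring (adjusted p = 0.0505), array weights (0.111) or only the 2 groups compared (0.0656). It also ended without any 1 of several arrays, among them wild-type array 2 (0.0541) or 3 (0.23).

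Several Cyp2c genes are known to be sex-biased or zoned within the lobule, and lists for both were read beside them. The shares of all genes that passed were 21.0% in Mdr2-KO, 12.3% in the double knockout and 8.76% between the knockouts. All arrays were from females, and of 8 measured female-biased liver genes 7 fell in each knockout against wild type, with a median of -2.95 and -2.71, and none passed between the knockouts. The 7 in the double knockout were 4 without wild-type array 1 or 3. In Mdr2-KO the Cyp2b9 call ended without wild-type array 1 or 3 (adjusted p = 0.0622 and 0.0901). That of Cyp2b13 ended there without wild-type array 2 or 3 (0.0602 and 0.0693) or with trend and robust moderation (0.053). The mean of the list was 8.41 to 10.09 in wild type, 6.57 to 7.35 in Mdr2-KO and 6.32 to 7.08 in the double knockout. In each knockout 2 of the 8 genes, Cyp3a16 and Sult3a1, had means under the background, so the size of their fall is uncertain. Of 9 male-biased genes 4 rose and 1 fell in each, the risers including Cyp2d9 (1.97 and 2.02), C6 (1.35 and 1.06), and Cyp4a12a and Cyp4a12b, whose wild-type means (4.28 and 4.75) were under the background, so that the size of their rise is not given here. The 1 that fell was Cyp7b1 in Mdr2-KO and Elovl3 in the double knockout, both lost without wild-type array 3, and Elovl3 also without wild-type array 1 (adjusted p = 0.117) or double-knockout array 4, 5 or 6 (0.0543, 0.0512 and 0.0537). Of 12 pericentral genes 2 fell in each, Lgr5 in both (-0.96 and -1.09), while Glul, Cyp2e1 and Cyp1a2 did not pass, and of 8 periportal genes 1 rose and 2 fell in Mdr2-KO, and 1 rose in the double knockout. The pericentral falls were 4 and 4 without wild-type array 2, 1 and 1 without array 1, and 1 and 0 without array 3. The periportal falls in Mdr2-KO were 0 without wild-type array 2 or Mdr2-KO array 1, 2, 4 or 5, and the rise there was 0 without wild-type array 3 and 2 without double-knockout array 2. The Lgr5 call ended without wild-type array 3 in both (adjusted p = 0.12 and 0.072) and, in Mdr2-KO, without array 1 (0.0573). Between the knockouts 1 male-biased gene, Slco1a1, was lower (adjusted p = 0.0361), with means under the background (4.34 against 4.82) and a call that ended without any of 8 single knockout arrays (up to 0.0916, without Mdr2-KO array 4). None of the pericentral or periportal genes passed there, and 1 periportal gene did without double-knockout array 2. The part of sex-biased expression or zonation in the Cyp2c values was not tested.

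Some markers of other cell types also passed. Against wild type, 8.89% of all genes were higher and 12.1% lower in Mdr2-KO, and 6.96% higher and 5.33% lower in the double knockout. Between the knockouts 8.76% of all genes passed. Of 8 measured bile duct markers 4 were higher in Mdr2-KO and 5 in the double knockout, and none between the knockouts (1 without double-knockout array 1); their mean was 5.92 to 6.49 in wild type, 6.71 to 7.64 in Mdr2-KO and 6.69 to 7.67 in the double knockout, and in wild type 2 of the 8 were at or under the background. Of 8 stellate cell and fibroblast markers 3 were higher in each knockout (mean 7.88 to 8.03 in wild type, 7.92 to 8.68 and 8.16 to 8.68 in the knockouts), and of 8 macrophage markers 2 were (7.66 to 8.05, 8.01 to 8.29 and 8.05 to 8.44), Gpnmb and Ccr2. Without wild-type array 1 or 3, 1 of 8 stellate markers was left in Mdr2-KO, and 1 of 8 macrophage markers in the double knockout. Between the knockouts another macrophage marker, Marco, passed (0.71, adjusted p = 0.0495), a call that ended under both scalings and in most alternatives (up to 0.118, without Mdr2-KO array 1). Of 6 endothelial markers 1, Vwf, was higher in each (8.41 to 8.53, 8.34 to 8.44 and 8.22 to 8.69), calls that ended after quantile normalization (adjusted p = 0.0643 and 0.0514), with array weights (0.0638 and 0.0928) and without wild-type array 2 (0.112 and 0.148) or 3 (0.114 and 0.109), among others. Of 6 lymphocyte markers 2 were lower in Mdr2-KO and 4 in the double knockout (6.47 to 7.58, 5.81 to 6.31 and 5.75 to 6.57), but 0 and 0 without wild-type array 2. The count in the double knockout was 1 without its array 2, 3 or 6 and 2 without its array 4, and that in Mdr2-KO was 1 without wild-type array 1. The part of these cells in the Cyp2c differences was not tested.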

How the data were processed

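Liver RNA was measured on 14 Affymetrix mouse gene arrays. The deposited table holds log2 values, for which the submitters' processing notes name Partek and RMA. Their versions, the genome build and any pooling of samples were not given in the sources used here. Their normalization was kept. Of 35557 probes 21789 name 1 gene, 1621 several and 12147 none, and the last 2 kinds were left out. Of the single-gene probes 21698 were matched by gene identifier. Each gene was read through its probe of highest mean, with no filter, giving 19938 genes. All columns were mapped to samples through the labels.

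Groups were compared in limma 3.58.1 (R 4.3.3) with 1 mean per group over all 14 arrays, empirical Bayes moderation, 2-sided tests and Benjamini-Hochberg adjustment over all genes. The script was tested on simulated data. Promoter windows from RefSeq were searched on both strands and aligned with Biopython 1.88 under Python 3.11.15, and plots were drawn with matplotlib 3.10.9. The number of arrays limits the precision. The labels give no batch.

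The text names the 8 members, every other Cyp2c gene with a probe of its own, Abcb4 and Il6, up to 4 members of each list that passed with the largest change, and the 3 most correlated genes per member. It shows a part of these. Cebpa, Nr1h4, Nr3c1, Nr1i2, Hnf4a, Onecut1, Glul, Cyp2e1, Cyp1a2 and Cyp2b9, some of them outside this rule, are named to make counts or known roles clear. Members and lists were chosen with earlier results of these data known. Alternatives were quantile normalization, median centring, the mean of a gene's probes, only genes above the background, trend and robust moderation, array weights, only the 2 groups compared, a fold of at least 1.5, and each array left out in turn.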

Additional observations from a re-analysis of the deposited data

Results flagged for a closer look

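Cyp2c55 in Mdr2-KO array 3 stood far from the other 4 arrays of its group. It read 4.02, under the background of 5.49, and the nearest other array read 5.64, so that the gap took 0.791 of the range of the group. Of 16 groups of 5 or 6 arrays, 1 for each member and knockout, this was the only one so marked, and chance marks about 1 in 20. The same array was the lowest of its group for Cyp2c38 (9.25, next 10.20) and for Cyp2c39 (11.65).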

How the results depend on the processing

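Over 24 member differences and 22 alternatives each, the direction and the side of the threshold stayed the same in 506 cases, 4 called differences no longer passed, and 18 differences that had not passed changed sign. The 4 were Cyp2c50 in Mdr2-KO and Cyp2c29 in the double knockout, as given with their values above. Scaling by quantiles or medians ended no member's call. The number of members passing was 3 to 4, 4 to 5 and 0 to 0 with 1 array left out (for Mdr2-KO and the double knockout, each against wild type, then for the knockouts), and the number of all genes 2140 to 4507, 1635 to 2544 and 754 to 2164. Lowest for Mdr2-KO was the count without wild-type array 3 (2140). Between the knockouts it was 754, 932 and 999 without Mdr2-KO array 1, 3 or 4, and 1055 and 1045 without double-knockout array 4 or 5. At a fold of at least 1.5, 799, 748 and 150 genes passed. Leaving out 1 array, Cyp2c38 ran from -0.22 to 0.16, -0.14 to 0.13 and -0.16 to 0.19, Cyp2c55 from -0.89 to 0.033 and Cyp2c70 from -0.024 to 0.038 (both double knockout against wild type), and Cyp2c39 from -0.026 to 0.13 between the knockouts. With array weights Cyp2c70 was at -0.0016 in the double knockout against wild type. With Mdr2-KO array 3 and wild-type array 2 both left out, chosen after seeing the data, Cyp2c38 was at 0.014, -0.14 and -0.16, Cyp2c55 at 0.033 (double knockout against wild type), Cyp2c39 at -0.026 between the knockouts, and 970 genes passed there; the cause was not tested. Signal near the background limits Cyp2c55. No paired analysis was possible because the knockout arrays carry no replicate numbers shared with wild type.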
